A study of Mus musculus with 15 samples.

Results

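The genes described here encode Golgi glycosyltransferases and glycan-trimming mannosidases in 6DT1 cells, which derive from a mouse mammary tumour. They were taken by a rule on names: symbols that begin with St3gal, St6gal, St8sia, B4galt, B3galt, B3gnt, Galnt, Mgat, Fut, Man1a, Man1c or Man2a. The rule was chosen with earlier results of these data known. A number, or nac and a number, had to follow, and pseudogenes were left out. Of 73 symbols in the name table that fit, 47 were listed among the 13840 genes of the deposited gene tables, and 26 were not listed. The members were 11 of 20 sialyltransferases, 7 of 7 B4galt galactosyltransferases, 7 of 13 B3galt and B3gnt enzymes, 8 of 13 Galnt, 6 of 8 Mgat and 4 of 8 Fut genes, and 4 of 4 mannosidases. The transcript table listed 100 transcripts of 46 members, of 30220 in all. The gene listed as B3gnt1 is named B4gat1 in RefSeq and was kept because the name table has the older symbol.

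Proteins and lipids acquire their sugars stepwise as they cross the Golgi. Mannosidases trim the mannose-rich N-glycan that arrives from the endoplasmic reticulum, Mgat enzymes start its antennae, Galnt enzymes place the first sugar of mucin-type O-glycans on serine and threonine, and B4galt, B3gnt, Fut and sialyltransferase enzymes extend and cap the chains. Branched N-glycans, truncated O-glycans and sialylated ends are well-known features of the surface of carcinoma cells.

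The cells formed 5 groups of 3 libraries, grown as a monolayer on plastic and otherwise untreated. OE overexpressed Smarcd1, a subunit of the SWI/SNF chromatin remodelling complex, and was set against EV, which carried the empty vector; overexpression cells were kept in blasticidin. KD4 and KD6 each carried a short hairpin RNA against Smarcd1 and were set against shScr, with a scrambled hairpin; hairpin cells were kept in puromycin. Every group was a single transduced line of 6DT1, so the construct and the line cannot be told apart, and replicates were separate passages seeded on successive days.

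Levels are CPM (counts scaled to the same library total) as deposited, without correction for gene length, and the depth of the libraries is unknown. Smarcd1 was at 65.7 ± 4.40 CPM in OE and 29.6 ± 2.37 CPM in EV (SD, n = 3 each, as for all means of single lines here). It was at 9.13 ± 0.121 CPM in KD4 and 14.4 ± 1.03 CPM in KD6, against 15.3 ± 1.01 CPM in shScr. The adjusted p of limma was 0.00355 for OE, 0.000873 for KD4 and 0.701 for KD6, so KD6 did not differ measurably from shScr in Smarcd1 itself. Of 10 epithelial markers 3 were listed, the keratins Krt8, Krt18 and Krt19, at a sum of 660 to 961 CPM over all libraries, whereas Epcam and Cdh1 were not listed. Fibroblast and immune lists had 1 listed marker each, Pdgfra and Cd68. Of 7 myoepithelial and basal markers, Acta2 and Mylk were listed, and no adipocyte marker was. The endothelial markers Kdr and Vwf, 2 of 5, were listed for OE and EV only. Their sum was 6.55 to 37.3 CPM in OE and 9.57 to 35.2 CPM in EV. EV replicate 1 stood apart from the other OE and EV libraries on the first principal component.

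The promoters of 5 members called below are shown as examples, and the comparisons do not use these sequences. Mgat4a, Mgat5, Galnt3 and Galnt7 were higher in KD6 than in KD4, and St3gal5 differed between both hairpin lines and shScr. B4galt4, which was lower in KD6 than in KD4, and B4galt6 are among the called members not shown. Each printed sequence is the 120 bases before the first start site listed for the gene in RefSeq, on build GRCm38.p6. It is read 5′ to 3′ on the strand of the gene. Capitals mark GC boxes (GGGCGG) and CCAAT boxes (CCAAT), searched on both strands, so that their reverse complements are in capitals as well.
Mgat4a, chr1:37541017-37541136, minus strand: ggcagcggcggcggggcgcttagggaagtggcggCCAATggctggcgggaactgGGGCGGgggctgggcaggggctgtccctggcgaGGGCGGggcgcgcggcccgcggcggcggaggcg
Mgat5, chr1:127204866-127204985, plus strand: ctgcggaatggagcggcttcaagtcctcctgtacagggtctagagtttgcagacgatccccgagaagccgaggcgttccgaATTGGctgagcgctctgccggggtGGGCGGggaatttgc
Galnt3, chr2:66124794-66124913, minus strand: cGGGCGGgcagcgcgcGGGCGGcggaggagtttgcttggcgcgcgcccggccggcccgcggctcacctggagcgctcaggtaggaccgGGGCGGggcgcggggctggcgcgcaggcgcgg
Galnt7, chr8:57653056-57653175, minus strand: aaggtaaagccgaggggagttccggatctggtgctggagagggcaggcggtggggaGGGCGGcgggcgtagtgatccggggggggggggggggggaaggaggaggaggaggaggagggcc
St3gal5, chr6:72097488-72097607, plus strand: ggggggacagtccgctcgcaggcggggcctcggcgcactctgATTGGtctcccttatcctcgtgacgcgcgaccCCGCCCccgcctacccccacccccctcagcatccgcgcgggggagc

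The table held promoters of 33 members, as windows of 250 bases before to 50 bases after the start. Their median GC content was 68.3%, against 61.3% for 8037 genes listed in the deposited tables and 52.7% for all 27025 genes of the promoter table. A GC box was present in 27 of 33 members (81.8%), against 71.0% of the listed genes and 38.2% of all genes. The Golgi stress element (ACGTGGC), known from genes induced when the Golgi is overloaded, was present in 0 of 33 members, 4.65% of listed genes and 2.95% of all genes. A TATA box (TATAAA) was present in 0 of 33, 8.44% and 15.7%, and a CCAAT box in 13 of 33 (39.4%), 43.4% and 41.1%. An AP-1 site (TGANTCA) was present in 2 of 33 members (6.06%), 6.37% and 8.97%, and an E-box (CACGTG) in 2 of 33 (6.06%), 12.2% and 8.09%. The E-box and the Golgi stress element can overlap, and all motifs were searched on both strands. The 5 printed promoters each had a GC box, 2 in Mgat4a and 3 in Galnt3.

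Levels of different genes were compared per kilobase of transcript, for 37 members with a transcript length in GENCODE vM1 for at least 80% of their CPM. Galnt1, the member with the highest mean CPM, had a length for 17.3% of its CPM and was left out. Man2a2, St3gal1, Fut8 and St6galnac4 were also among those left out, so the highest member of all is not known. The order ran from Mgat4b at 48.7 ± 7.74 CPM per kilobase to B4galt2 at 0.295 ± 0.131 CPM per kilobase (SD, 15 libraries), a 165-fold difference. For B4galt2 and St6galnac2 the CPM summed over transcripts differed by over 1.5-fold from the CPM of the gene. From the gene values, set across both gene tables, B4galt2 would be at 0.727 ± 0.259 and St6galnac2 at 1.09 ± 0.193 CPM per kilobase, and without these 2 genes the order spanned 80.2-fold, down to Fut4 at 0.607 CPM per kilobase. Mgat4b, which starts an N-glycan antenna, was followed by Mgat5 (38.4 ± 5.15 CPM per kilobase), which starts a further antenna, and by Galnt2 (35.9 ± 2.33 CPM per kilobase), which starts O-glycans. The ranges over the 15 libraries overlapped for 35 of 36 neighbours in this order. These ranges include differences between the lines and were not paired by library, so whether neighbours differ was not tested. There were 18 members over 10 CPM per kilobase, among them B4galt1 and B4galt5 and the mannosidases Man1a2 and Man2a1, and 5 members under 1 CPM per kilobase, B3galt4, Galnt12, Fut4, St6galnac2 and B4galt2, of which St6galnac2 was not under it from the gene values.

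**Figure D1:**
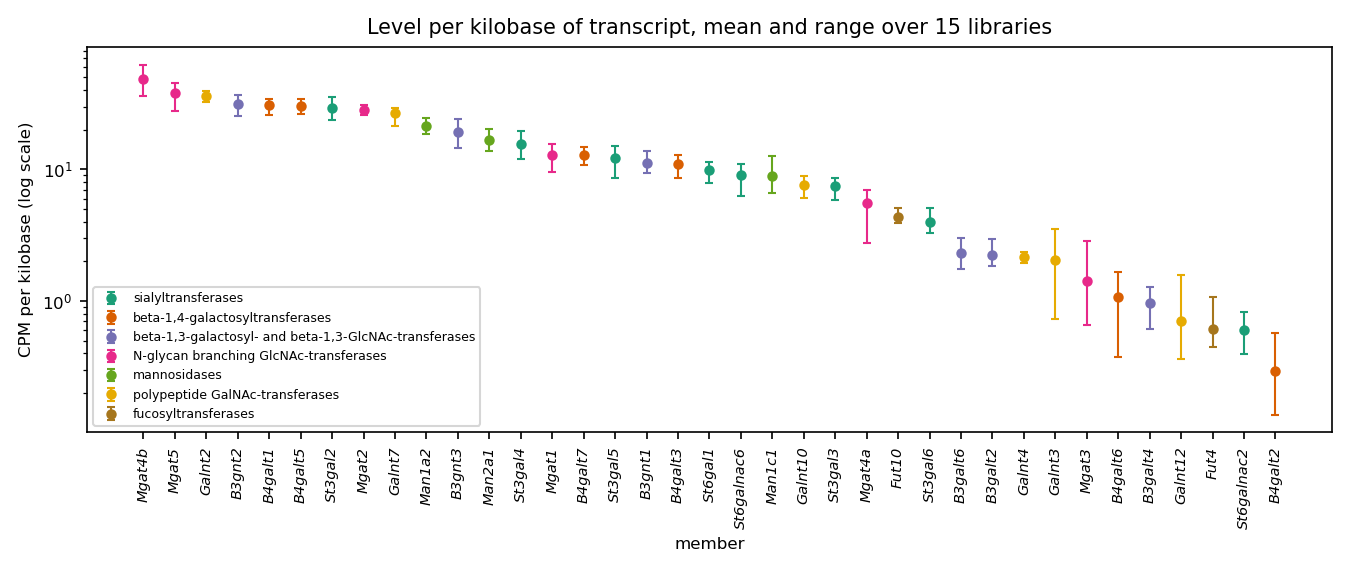
Level of 37 members in CPM per kilobase of transcript on a log axis, ordered from high to low, with the mean (points) and the range (bars) over 15 libraries, coloured by family. Among these 37, Mgat4b stood highest at 48.7 and B4galt2 lowest at 0.295 CPM per kilobase.

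The 10 members with the highest mean CPM, which is not corrected for length and so gives no order of levels between genes, were Galnt1 (188 CPM over 15 libraries), Galnt2 (148 CPM), Man1a2 (145 CPM), B4galt5 (131 CPM), Mgat5 (128 CPM), B4galt1 (122 CPM), Man2a2 (118 CPM), Man2a1 (117 CPM), St3gal2 (115 CPM) and Mgat4b (115 CPM). These include the broadly acting initiators of O-glycosylation, the main galactosyltransferase of N-glycans (B4galt1), the Golgi mannosidases and a sialyltransferase of O-glycans and gangliosides (St3gal2). Only Mgat5 among these 10 was called in any of the 5 gene comparisons. Man2a1, which trims mannose after the first antenna is begun, came next, at 136 ± 7.44 CPM in KD4 and 116 ± 5.72 CPM in shScr, a log2 difference of 0.22 (adjusted p = 0.0604).

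OE was compared with EV to ask which members followed overexpression of Smarcd1. No member was called at an adjusted p under 0.05 by limma on log2(CPM + 1), the scale of all log2 changes given here, which understates changes of low genes. Smarcd1 was the 1 gene called of 13501, a background of 0.00741%. At an unadjusted p under 0.05 there were 7 of 46 members, 6 higher and 1 lower in OE, while 12.95% of all genes were under that level. The median log2 change was 0.04 over the members and 0.01 over all genes. The groups did not overlap in 6 of 46 members (13.04%), against 20.0% of all genes.

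The 5 members with the smallest p in this comparison are given as values. Mgat4b, a GlcNAc-transferase of the same branch as Mgat4a, had 123, 126 and 138 CPM in OE, against 92.9, 114 and 111 CPM in EV, a log2 difference of 0.29 (SE 0.08, adjusted p = 0.269). Its 3 OE libraries were all above the 3 EV libraries. St3gal1, which sialylates mucin-type O-glycans, averaged 92.2 ± 6.46 CPM in OE and 81.7 ± 2.67 CPM in EV (adjusted p = 0.316). Fut8, which adds the fucose at the base of N-glycans, averaged 52.5 ± 1.23 CPM in OE and 47.3 ± 2.36 CPM in EV (adjusted p = 0.326). For both genes the OE libraries lay above the EV libraries, a difference that did not pass the test. B3gnt8, which extends branched N-glycans, averaged 2.26 ± 0.158 CPM in OE and 3.01 ± 0.363 CPM in EV (adjusted p = 0.329). St6galnac2, a sialyltransferase of O-glycans, averaged 3.75 ± 0.164 CPM in OE and 2.78 ± 0.552 CPM in EV (adjusted p = 0.330).

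**Figure D2:**
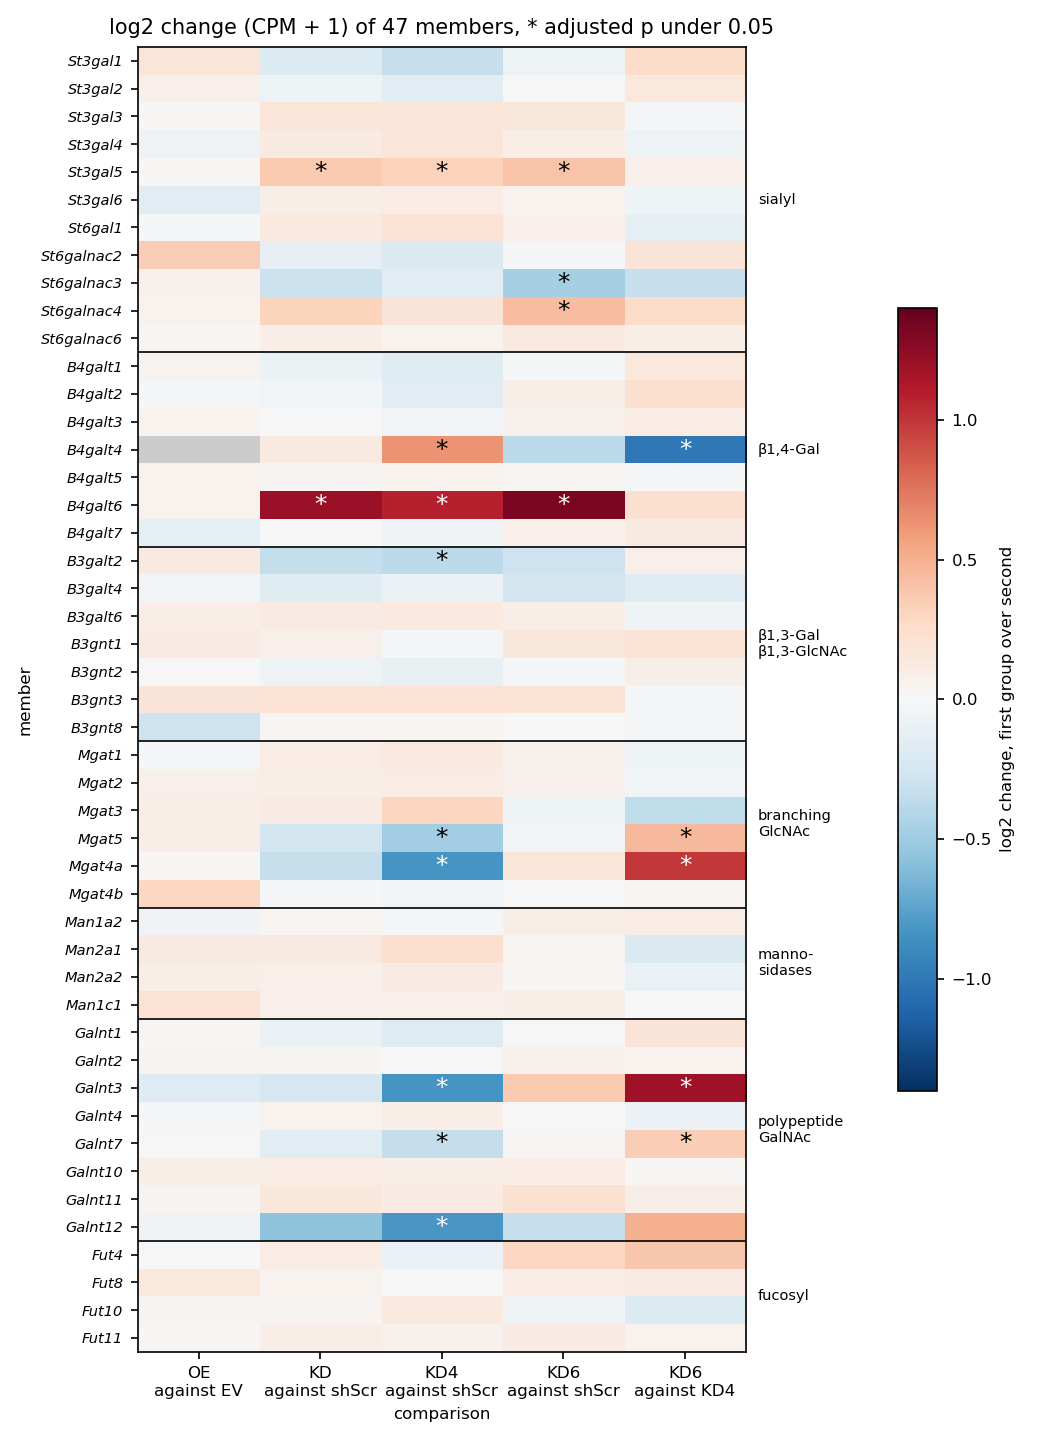
Log2 change of log2(CPM + 1) for 47 members (rows, by family) in 5 comparisons (columns), red where the first-named line was higher and blue where it was lower, grey where B4galt4 was not listed. Stars mark an adjusted p under 0.05: 0 in OE against EV, 2 in KD, 9 in KD4 and 4 in KD6 against shScr, and 5 in KD6 against KD4.

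Of 47 members 11 (23.4%) were called in at least 1 of the 5 gene comparisons, against 12.2% of all 13840 genes, and each of these calls was among the hairpin lines. KD, the 6 libraries of both hairpin lines as 1 group, was set against shScr, a comparison in which Smarcd1 itself was not called (log2 change -0.39, adjusted p = 0.268). B4galt6 and St3gal5 were higher in KD (4.26% of members, against 1.95% of all genes) and 0 members were lower, against 0.710% of all genes. At an unadjusted p under 0.05 there were 7 members, with 17.3% of all genes under that level. The groups did not overlap in 6 of 47 members (12.8%), against 10.8% of all genes. The median log2 change was 0.05 over the members and 0.00 over all genes. KD4, KD6 and KD share the shScr libraries, so their values are not independent of each other.

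B4galt6 and St3gal5 act one after the other on glycolipids. B4galt6 makes lactosylceramide, a step it shares with B4galt5, and St3gal5 (GM3 synthase) adds the sialic acid that turns lactosylceramide into the ganglioside GM3. B4galt6 had 6.28, 7.54 and 5.95 CPM in KD4 and 6.24, 9.56 and 8.04 CPM in KD6, against 2.93, 2.17 and 2.58 CPM in shScr. Every hairpin library was above every shScr library. The log2 change was 1.20 in KD (SE 0.14, adjusted p = 0.00138), 1.09 in KD4 (SE 0.15, adjusted p = 0.00141) and 1.32 in KD6 (SE 0.15, adjusted p = 0.00147). No left-out library ended these calls, with adjusted p up to 0.0136 in KD. KD6 and KD4 differed by 0.23 (95% interval from -0.10 to 0.55, adjusted p = 0.499).

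St3gal5 had 26.1, 28.0 and 26.6 CPM in KD4 and 30.1, 29.2 and 25.8 CPM in KD6, against 19.8, 21.2 and 22.8 CPM in shScr. The hairpin libraries again lay above all shScr libraries, by a smaller factor. Its log2 change was 0.36 in KD (SE 0.08, adjusted p = 0.0301), 0.33 in KD4 (SE 0.08, adjusted p = 0.0345) and 0.40 in KD6 (SE 0.08, adjusted p = 0.0320). Each of these calls was lost in 6 of 9 fits that left out 1 library. In KD these were the fits without KD4 replicate 2, KD6 replicates 1 and 2 and each shScr replicate, with log2 changes of 0.31 to 0.41 and adjusted p up to 0.157. In KD4 they were those without KD4 replicates 1, 2 and 3, KD6 replicate 2 and shScr replicates 1 and 2, with adjusted p up to 0.121. In KD6 they were those without KD4 replicate 2, KD6 replicates 1 and 2 and each shScr replicate, with adjusted p up to 0.128.

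The position of OE and EV was read from the transcript table, which holds all 15 libraries, as a description without a test. B4galt6 had 6.65, 7.20 and 7.39 CPM in OE and 8.18, 5.54 and 6.84 CPM in EV, so that shScr alone was low among the 5 lines. Summed over its transcripts, St3gal5 had 33.8, 30.1 and 32.2 CPM in OE and 31.0, 30.8 and 32.9 CPM in EV, above the hairpin libraries as well as shScr. B4galt5, the other lactosylceramide synthase, averaged 128 ± 10.99 CPM in KD4 and 126 ± 2.77 CPM in KD6, against 123 ± 6.80 CPM in shScr. Its log2 change was 0.05 in KD4 (adjusted p = 0.723) and 0.03 in KD6 (adjusted p = 0.919).

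The remaining members of the 5 with the smallest p in KD did not pass. B3galt2, a galactosyltransferase, averaged 10.7 ± 0.473 CPM in KD and 13.7 ± 1.61 CPM in shScr (adjusted p = 0.0708). Galnt12, which starts O-glycans, averaged 1.72 ± 0.619 CPM in KD and 2.96 ± 0.364 CPM in shScr (adjusted p = 0.129). St6galnac4, which adds sialic acid to O-glycans already capped by another, averaged 60.3 ± 8.83 CPM in KD and 48.1 ± 1.23 CPM in shScr (adjusted p = 0.159). In each of these 3 the groups did not overlap. When KD was instead taken as the mean of both lines in a fit of 3 groups, B3galt2 and Galnt12 passed as lower (adjusted p = 0.0415 and 0.0274).

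**Figure D3:**
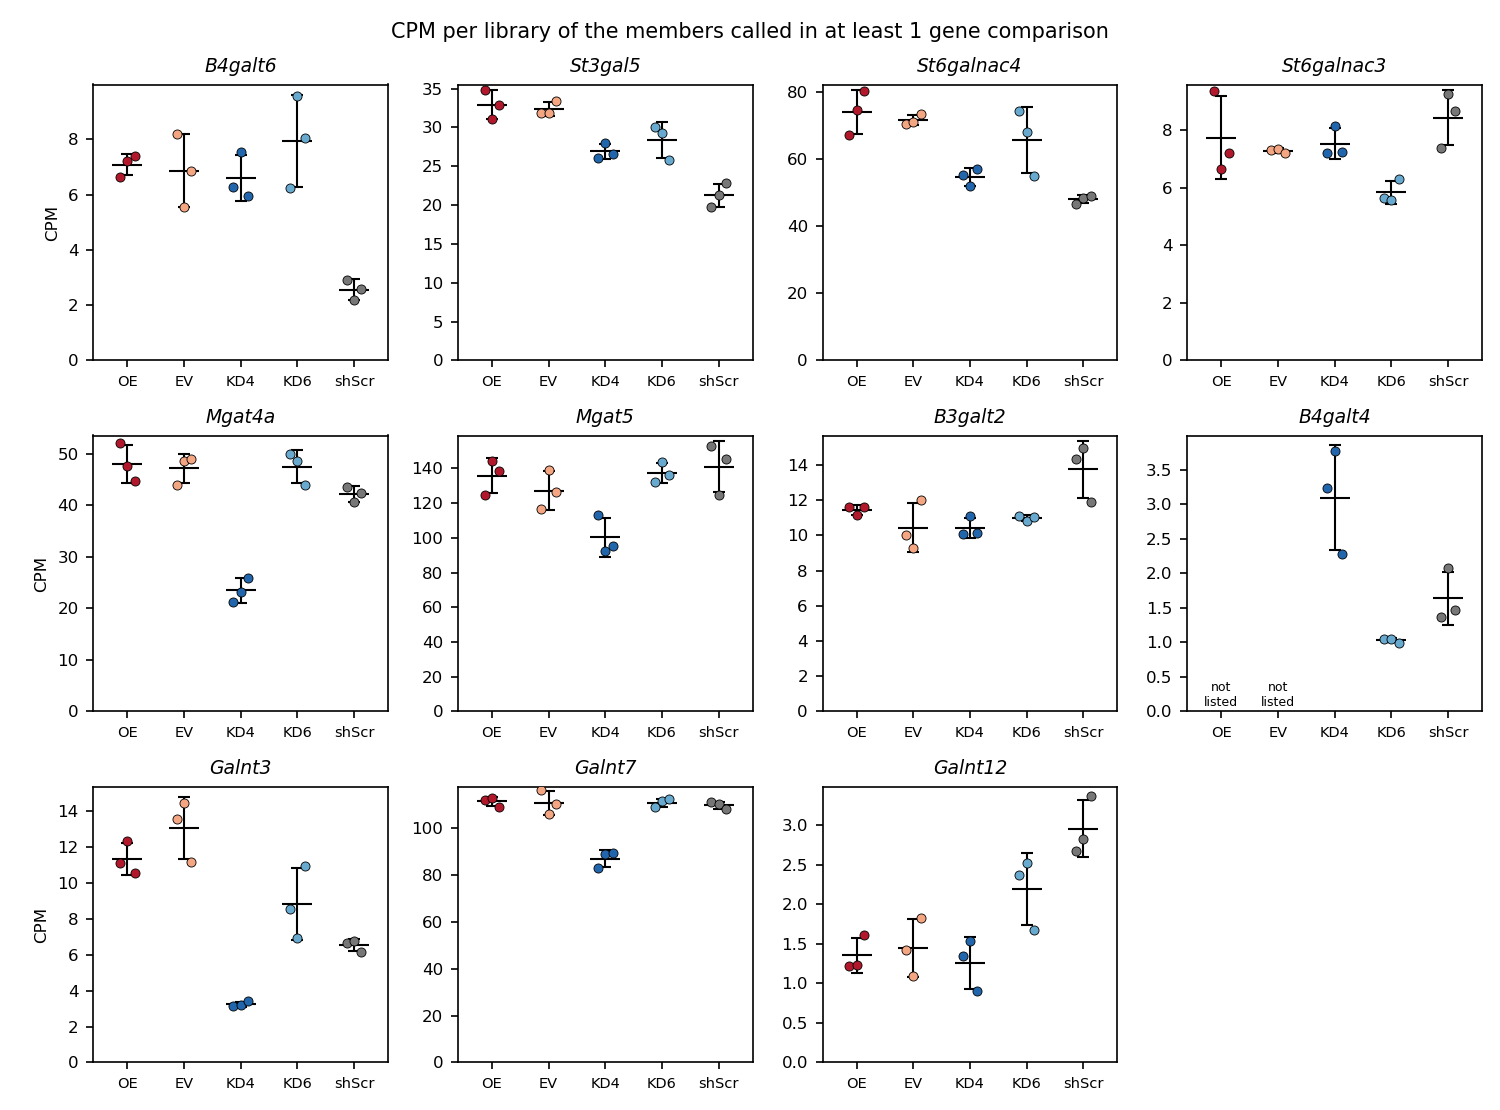
CPM of each library (points) with the mean and SD (bars) in OE, EV, KD4, KD6 and shScr for the 11 members called in at least 1 gene comparison; OE and EV come from a separate gene table. In B4galt6 the shScr libraries alone are low, at 2.17 to 2.93 CPM, while in Mgat4a the KD4 libraries alone are low, at 21.3 to 26.0 CPM.

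KD4 was the line with the lowest Smarcd1 and the most called members. There 3 of 47 members were higher (6.38%, against 5.71% of all genes) and 6 were lower (12.8%, against 3.87% of all genes). The groups did not overlap in 20 of 47 members (42.6%), against 29.5% of all genes. The 6 lower members were Mgat4a, Mgat5, Galnt3, Galnt7, Galnt12 and B3galt2, and the 3 higher ones B4galt6, St3gal5 and B4galt4. The median log2 change was 0.03 over the members and 0.00 over all genes, so the members did not shift as a whole. At an unadjusted p under 0.05 there were 14 members, with 24.7% of all genes under that level. Markers of cell types moved in the same line. Krt19, an epithelial keratin, was at 12.9 ± 0.871 CPM in KD4 and 22.5 ± 0.875 CPM in shScr (adjusted p = 0.00106), and the fibroblast marker Pdgfra at 7.51 ± 0.345 CPM in KD4 and 3.14 ± 0.535 CPM in shScr (adjusted p = 0.000458). The myoepithelial marker Mylk was higher as well (log2 change 0.36, adjusted p = 0.0373), while the sum of the 3 listed keratins was 763 to 961 CPM in KD4 and 698 to 770 CPM in shScr. None of these markers was called in KD6 against shScr, Krt19 and Pdgfra were called between KD6 and KD4 (0.51 and -0.57, adjusted p = 0.0136 and 0.017), and in KD Mylk and Pdgfra were called (0.36 and 0.76, adjusted p = 0.041 and 0.0425). The part of these differences in the results was not tested.

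Both lower Mgat genes begin N-glycan antennae. Mgat4a, whose product starts an antenna on the mannose arm first used by Mgat1, had 21.3, 23.3 and 26.0 CPM in KD4, against 43.6, 40.6 and 42.3 CPM in shScr. The KD4 libraries were below every other library of the series. Its log2 change was -0.82 (SE 0.09, adjusted p = 0.000341), a ratio of mean CPM of 0.557, and no left-out library ended the call. Mgat5, which begins the branch bound by galectins, had 113, 92.6 and 95.2 CPM in KD4, against 153, 124 and 146 CPM in shScr. The groups did not overlap, though KD4 replicate 1 came near shScr replicate 2. Its log2 change was -0.49 (SE 0.10, adjusted p = 0.0103), with -0.43 and an adjusted p of 0.0504 without KD4 replicate 2. The other branching genes Mgat1, Mgat2, Mgat3 and Mgat4b were not called, with log2 changes from -0.04 to 0.30.

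Galnt enzymes transfer GalNAc to protein. Galnt3, known for glycosylating the hormone FGF23, had 3.13, 3.21 and 3.40 CPM in KD4, against 6.68, 6.78 and 6.15 CPM in shScr. Its log2 change was -0.83 (SE 0.13, adjusted p = 0.00392), a ratio of mean CPM of 0.497. Galnt7, which prefers peptides that already carry GalNAc, had 82.7, 88.8 and 89.2 CPM in KD4, against 111, 110 and 108 CPM in shScr. The groups of both genes were clearly apart, with a narrow spread inside each. For Galnt7 the log2 change was -0.33 (SE 0.06, adjusted p = 0.00548). Galnt12 had 1.34, 1.54 and 0.901 CPM in KD4, against 2.67, 2.83 and 3.37 CPM in shScr, a log2 change of -0.81 (SE 0.15, adjusted p = 0.00732). No left-out library ended these 3 calls. The other 5 Galnt genes were not called in KD4, Galnt1 among them at 171 ± 13.2 CPM in KD4 and 194 ± 10.3 CPM in shScr (adjusted p = 0.144).

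Set beside OE and EV in the transcript table, these genes differed in which line stood apart. Summed over transcripts, Galnt3 was at 9.61 to 10.7 CPM in OE and 10.2 to 13.7 CPM in EV, above shScr and far above KD4. Galnt7 was at 108 to 112 CPM in OE and 105 to 116 CPM in EV, near shScr. Galnt12 was at 0.949 to 1.28 CPM in OE and 1.05 to 1.57 CPM in EV, near the 0.831 to 1.53 CPM of KD4 and below every shScr library. Mgat4a was at 41.6 to 47.3 CPM in OE and 42.5 to 47.3 CPM in EV.

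B4galt4 and B3galt2 completed the calls in KD4. B4galt4, which galactosylates sulphated GlcNAc, had 3.23, 3.77 and 2.28 CPM in KD4, against 1.37, 2.07 and 1.47 CPM in shScr, a log2 change of 0.63 (SE 0.15, adjusted p = 0.0281). The call was lost without KD4 replicate 1 or 2 or shScr replicate 1 or 3, with log2 changes down to 0.51 and adjusted p up to 0.102. B3galt2 had 10.1, 11.1 and 10.2 CPM in KD4, against 14.3, 14.98 and 11.9 CPM in shScr, a log2 change of -0.36 (SE 0.10, adjusted p = 0.0391). That call was lost in 7 of 9 fits, those without any KD4 replicate, KD6 replicate 2 or 3, or shScr replicate 1 or 2, with adjusted p up to 0.150. B3galt2 overlaps Cdc73 in the annotation and the use of strand in counting was not stated, so reads of the 2 genes may not be fully separated.

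In KD6 3 of 47 members were higher (6.38%, against 2.04% of all genes) and 1 was lower (2.13%, against 0.871% of all genes). The groups did not overlap in 13 of 47 members (27.7%), against 22.2% of all genes. The median log2 change was 0.06 over the members and 0.00 over all genes, and 8 members were under an unadjusted p of 0.05, with 15.3% of all genes under that level. Beside B4galt6 and St3gal5, 2 sialyltransferases that act on an already sialylated core were called, in opposite directions. St6galnac4 had 74.4, 68.0 and 55.1 CPM in KD6, against 46.7, 48.4 and 49.1 CPM in shScr, a log2 change of 0.44 (SE 0.10, adjusted p = 0.0425). St6galnac3 had 5.65, 5.58 and 6.29 CPM in KD6, against 7.39, 9.25 and 8.67 CPM in shScr, a log2 change of -0.46 (SE 0.10, adjusted p = 0.0405). Neither gene overlapped between KD6 and shScr, with KD6 replicate 3 the lowest of its group for St6galnac4.

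Both sialyltransferase calls were near the threshold and were lost in most of the 9 fits that left out 1 library, 7 for St6galnac4 and 6 for St6galnac3. St6galnac4 was lost without KD4 replicate 1 or 2, KD6 replicate 1 or 2, or any shScr replicate, with log2 changes of 0.34 to 0.45 and adjusted p up to 0.154. St6galnac3 was lost without KD4 replicate 2, any KD6 replicate, or shScr replicate 2 or 3, with adjusted p up to 0.172. In KD4 St6galnac4 averaged 54.7 ± 2.57 CPM (adjusted p = 0.284 against shScr) and St6galnac3 averaged 7.53 ± 0.531 CPM (adjusted p = 0.436). B3galt2, the next by p, averaged 10.97 ± 0.160 CPM in KD6 and 13.7 ± 1.61 CPM in shScr (adjusted p = 0.150).

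KD6 against KD4 tests the difference between the hairpin lines itself. It called 4 of 47 members higher in KD6 (8.51%, against 2.52% of all genes) and 1 lower (2.13%, against 2.39% of all genes), and 14 members (29.8%) did not overlap, against 21.6% of all genes. At an unadjusted p under 0.05 there were 11 members, with 17.4% of all genes under that level, and the median log2 change was 0.07 over the members and 0.00 over all genes. Mgat4a had 49.997, 48.6 and 44.0 CPM in KD6, against 21.3, 23.3 and 26.0 CPM in KD4, a log2 change of 0.99 (SE 0.09, adjusted p = 0.000320). Galnt3 had 8.57, 6.95 and 10.9 CPM in KD6, against 3.13, 3.21 and 3.40 CPM in KD4, a log2 change of 1.19 (SE 0.13, adjusted p = 0.000874). For both genes the KD6 libraries lay above all shScr libraries, a difference that did not pass (adjusted p = 0.397 for Mgat4a and 0.217 for Galnt3).

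Galnt7 had 109, 111 and 112 CPM in KD6, against 82.7, 88.8 and 89.2 CPM in KD4, a log2 change of 0.35 (SE 0.06, adjusted p = 0.00645). Mgat5 had 132, 143 and 136 CPM in KD6, against 113, 92.6 and 95.2 CPM in KD4, a log2 change of 0.45 (SE 0.10, adjusted p = 0.0212). The Mgat5 call was lost without KD4 replicate 2 or 3 or KD6 replicate 2 or 3, with adjusted p up to 0.0940. B4galt4 had 1.05, 1.05 and 0.997 CPM in KD6, against 3.23, 3.77 and 2.28 CPM in KD4, a log2 change of -0.996 (SE 0.15, adjusted p = 0.00400). The 5 genes did not overlap between the lines. Galnt12 averaged 2.19 ± 0.455 CPM in KD6 and 1.26 ± 0.326 CPM in KD4, a log2 change of 0.50 that did not pass (adjusted p = 0.0896).

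Transcripts were tested over all 30220 transcripts. No transcript was called in OE against EV, of members or of all (0%), with 11 member transcripts under an unadjusted p of 0.05. In KD4 5 of 100 member transcripts were called (1.14% of all) and in KD6 2 of 100 (0.142% of all). For Mgat4a the called transcript was ENSMUST00000042161, at 7.79, 8.64 and 6.82 CPM in KD4, against 18.3, 15.6 and 21.4 CPM in shScr, a log2 change of -1.14 (SE 0.13, adjusted p = 0.00696). Its other long transcript, ENSMUST00000151952, was at 12.7 ± 3.54 CPM in KD4 and 18.1 ± 3.11 CPM in shScr (adjusted p = 0.311). The remaining called transcripts in KD4 were those of B4galt6 (log2 change 1.09, adjusted p = 0.0215), Galnt3 (-0.83, adjusted p = 0.0362), Mgat5 (ENSMUST00000038361, -0.47, adjusted p = 0.0402) and St3gal3. In KD6 the called transcripts were those of St3gal3 and B4galt6 (1.32, adjusted p = 0.0331). An unadjusted p under 0.05 was reached by 23 member transcripts in KD4 and 14 in KD6. For these counts and the 11 in OE the share of all transcripts is not given, so they have no background.

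St3gal3 sialylates the ends of N-glycan antennae and was not called as a gene. Of its 2 listed transcripts, ENSMUST00000106410 had 3.85, 3.24 and 2.51 CPM in KD4 and 4.73, 5.40 and 4.09 CPM in KD6, against 0.701, 0.744 and 0.650 CPM in shScr. The log2 change was 1.29 in KD4 (SE 0.15, adjusted p = 0.00736) and 1.75 in KD6 (SE 0.15, adjusted p = 0.00864). It made up 16.6 ± 1.97% of the CPM of the gene in KD4 and 26.2 ± 2.33% in KD6, against 4.17 ± 0.537% in shScr. In OE it had 2.75, 6.06 and 4.46 CPM and in EV 6.97, 3.09 and 8.19 CPM, so that shScr alone was low among the 5 lines, as for B4galt6. The main transcript ENSMUST00000030263 was at 15.9 ± 1.27 CPM in KD4 and 13.3 ± 1.18 CPM in KD6, against 16.2 ± 1.68 CPM in shScr, and was not called in either line.

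**Figure D4:**
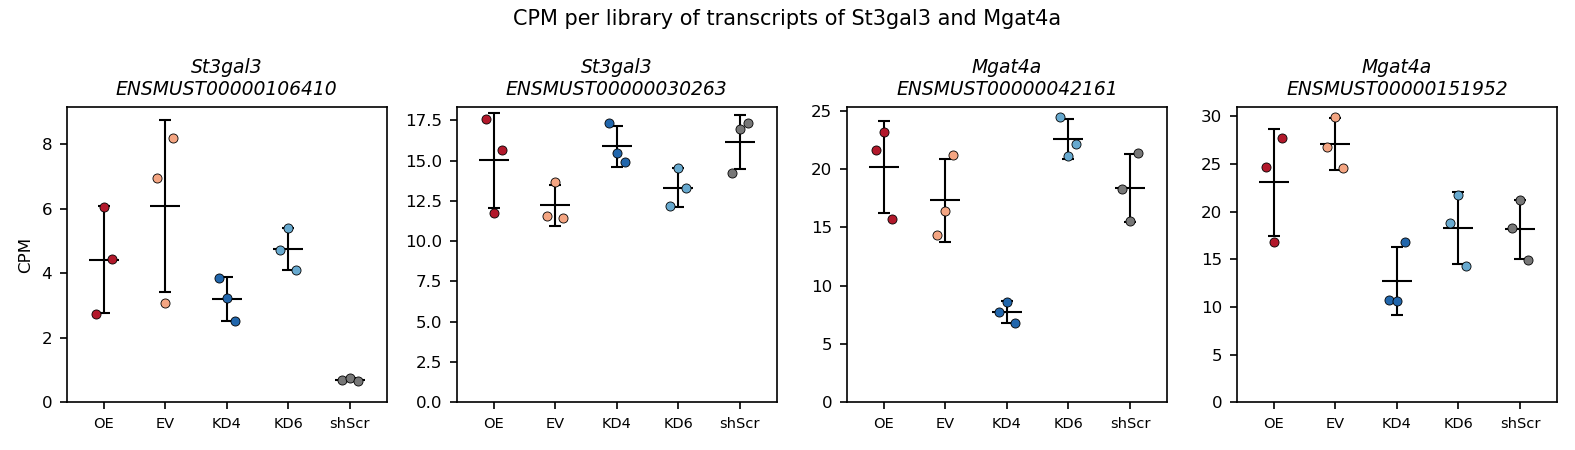
CPM of each library (points) with the mean and SD (bars) for 2 transcripts each of St3gal3 and Mgat4a in OE, EV, KD4, KD6 and shScr. St3gal3 ENSMUST00000106410 is low in shScr alone, at 0.650 to 0.744 CPM, and Mgat4a ENSMUST00000042161 is low in KD4 alone, at 6.82 to 8.64 CPM.

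Transcript usage was tested with diffSplice in 7077 genes with at least 2 transcripts, 24 of them members. It called St3gal3 in KD4 (adjusted p = 0.00224) and in KD6 (adjusted p = 5.49e-05) and Mgat1 in OE (adjusted p = 0.00906). That was 1 member in each comparison, while 1.03%, 0.692% and 1.09% of all genes were called in KD4, KD6 and OE. On simulated data this test called more unchanged genes than its threshold allows, so a test of the ratio of a transcript to the rest of its gene, chosen after seeing the data, was set beside it. The ratio test kept St3gal3 in KD6 (adjusted p = 0.00303, with 0.0141% of all genes called) but not in KD4 (adjusted p = 0.0955, 0% of all genes called). It did not call Mgat1 in OE (adjusted p = 0.619, 0% of all genes called).

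Mgat1 adds the GlcNAc that opens the way from the trimmed core to complex N-glycans. Its transcript ENSMUST00000109194 had 10.2, 4.91 and 2.60 CPM in OE, against 0.712, 0.669 and 1.13 CPM in EV, with OE replicate 1 far above the other libraries. The share of the CPM of the gene was 14.4 ± 8.62% in OE and 2.18 ± 0.733% in EV. As a transcript it was not called (log2 change 1.76, SE 0.38, adjusted p = 0.441), and the gene as a whole was at 39.4 ± 0.932 CPM in OE and 40.2 ± 1.19 CPM in EV. The usage call was lost without OE replicate 1, OE replicate 2 or EV replicate 1.

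Genes around these enzymes were counted in 9 lists that supply sugars, move them or act before and after the members. In OE 0 of 188 listed genes were called, with list medians from -0.08 to 0.03. In KD4 10 of 187 were higher (5.35%, against 5.71% of all genes) and 5 lower (2.67%, against 3.87%), shares below the background, with list medians from -0.07 to 0.10, beside 0.00 over all genes. In KD6 6 of 187 were higher (3.21%, against 2.04%) and 1 lower (0.535%, against 0.871%), with list medians from -0.02 to 0.10. In KD 4 were higher (2.14%, against 1.95%) and 1 lower (0.535%, against 0.710%), with list medians from -0.03 to 0.10. In KD6 against KD4 6 were higher (3.21%, against 2.52%) and 4 lower (2.14%, against 2.39%), with list medians from -0.06 to 0.07.

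Of 24 genes in a mixed list of other glycosylation genes, 3 were higher (12.5%, against 5.71% of all genes) and 3 lower (12.5%, against 3.87%) in KD4. This list was not limited to Golgi glycosyltransferases, as it also held the chaperone C1galt1c1 and the mannosidase Man1a. The lower ones were Gcnt1, which branches O-glycans, at 13.6 ± 2.15 CPM in KD4 and 20.9 ± 2.28 CPM in shScr (log2 change -0.59, adjusted p = 0.0180), C1galt1c1, the chaperone of the enzyme that extends them (-0.36, adjusted p = 0.0381), and Pomgnt2, which acts on dystroglycan (-0.50, adjusted p = 0.0467). The higher ones were Rfng, a Notch-modifying GlcNAc-transferase, at 10.1 ± 0.868 CPM in KD4 and 5.16 ± 1.39 CPM in shScr (log2 change 0.88, adjusted p = 0.00679), Gcnt4 (0.39, adjusted p = 0.0425) and Pofut1 (0.23, adjusted p = 0.0498). In KD6 only Rfng of this list was called, at 15.6 ± 1.54 CPM in KD6 (log2 change 1.45, adjusted p = 0.00130), and in KD too it was the 1 call (1.16, adjusted p = 0.0118). This 1 gene was 4.17% of the list, against 2.04% of all genes higher in KD6 and 1.95% in KD. Rfng was at 11.1 ± 0.500 CPM in OE and 11.9 ± 1.25 CPM in EV in their own table. In KD6 against KD4 B4galnt4 (0.81, adjusted p = 0.0143) and Pomgnt2 (0.61, adjusted p = 0.0315) were higher (8.33% of the list, against 2.52% of all genes).

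Of 22 nucleotide sugar synthesis genes, 2 were higher (9.09%, against 5.71% of all genes) and 1 lower (4.55%, against 3.87%) in KD4. Ugdh (log2 change 0.36, adjusted p = 0.00640) and Uap1 (0.37, adjusted p = 0.0104) were the higher ones. Gfpt1, the entry enzyme of the hexosamine pathway, was the lower one (-0.27, adjusted p = 0.0180). None of the 22 was called in KD6 or KD. In KD6 against KD4 Gfpt1 was higher (0.28, adjusted p = 0.0228) and Ugdh lower (-0.26, adjusted p = 0.0398). Each was 4.55% of the list, against 2.52% of all genes higher and 2.39% lower. Of 15 nucleotide sugar transporters, Slc35b4, which carries UDP-xylose and UDP-GlcNAc, was the 1 lower gene in KD4 (-0.38, adjusted p = 0.0103), KD6 (-0.34, adjusted p = 0.0367) and KD (-0.36, adjusted p = 0.0189). This 1 gene was 6.67% of the list, against 3.87%, 0.871% and 0.710% of all genes lower in KD4, KD6 and KD.

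Of 15 genes of glycan trimming and quality control in the endoplasmic reticulum, Mcfd2, a partner of the cargo receptor Lman1, was the 1 called gene. It was at 53.1 ± 3.20 CPM in KD4 and 53.6 ± 2.56 CPM in KD6, against 26.9 ± 1.47 CPM in shScr (log2 changes 0.95 and 0.97, adjusted p = 9.52e-05 and 0.000286), and at 0.96 in KD (adjusted p = 0.000101). It was at 54.4 ± 2.07 CPM in OE and 54.6 ± 4.74 CPM in EV in their own table. Mcfd2 alone was 6.67% of the list, against 5.71%, 2.04% and 1.95% of all genes higher in KD4, KD6 and KD. Of 34 genes of the oligosaccharyltransferase and its lipid donor, 0 were called against shScr and Dpm3 was lower in KD6 than in KD4 (-0.38, adjusted p = 0.0382). Of 26 genes of Golgi structure, 0 were called against shScr and Cog7 was lower in KD6 than in KD4 (-0.38, adjusted p = 0.0415). Dpm3 and Cog7 were 2.94% and 3.85% of their lists, against 2.39% of all genes lower in KD6 than in KD4. None of 17 genes of lysosomal glycan breakdown was called in the 5 comparisons.

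Of 22 measured genes of glycosaminoglycan synthesis, 3 were higher (13.6%, against 5.71% of all genes) and 0 lower (against 3.87%) in KD4. They were Ust, a sulphotransferase of chondroitin and dermatan sulphate, at 15.1 ± 1.26 CPM in KD4 and 5.44 ± 0.715 CPM in shScr (log2 change 1.32, adjusted p = 0.000108), Hs6st1 (0.61, adjusted p = 0.0101) and Chst11 (0.29, adjusted p = 0.0441). In KD6 Ust (0.70, adjusted p = 0.00634) and Csgalnact1 (0.92, adjusted p = 0.0243) were higher, and in KD Ust alone (1.01, adjusted p = 0.0161). These were 9.09% of the list in KD6, against 2.04% of all genes, and 4.55% in KD, against 1.95%. In KD6 against KD4 Extl2 (0.32, adjusted p = 0.0291) and Csgalnact1 (0.75, adjusted p = 0.0384) were higher and Ust lower (-0.62, adjusted p = 0.00866). The list shares were 9.09% higher and 4.55% lower, against 2.52% and 2.39% of all genes.

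Of 12 measured galectins and other glycan readers, Lgalsl, a galectin-related gene, was higher in KD4 (1.60, adjusted p = 0.00287), KD6 (1.75, adjusted p = 0.00423) and KD (1.67, adjusted p = 0.00186). Lgals7 was higher in KD6, at 11.1 ± 2.27 CPM in KD6 and 3.63 ± 0.524 CPM in shScr (log2 change 1.37, adjusted p = 0.00284), and higher in KD6 than in KD4 (1.26, adjusted p = 0.00276). Higher calls made up 8.33% of this list in KD4, 16.7% in KD6, 8.33% in KD and 8.33% in KD6 against KD4. The shares of all genes were 5.71%, 2.04%, 1.95% and 2.52%. Lgals3, a reader of the branch begun by Mgat5, was not called in KD4 (0.36, adjusted p = 0.0957).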

How the data were processed

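The data were mRNA libraries of 6DT1 lines sequenced on a HiSeq2500. The deposited values are CPM per gene (1 table for OE and EV, 1 for KD4, KD6 and shScr) and per transcript (all 15 libraries), computed by the authors in Partek; the labels name STAR 2.7.8a and build mm39, the methods an older aligner and build, so no coordinates were taken from the files. Listed features have a geometric mean of at least 1 CPM. Values held no whole-read steps (at most 12.1% within 0.05 reads of whole, 10% expected), so depth is unknown and no count test was possible. A further 15 per-sample columns of the transcript table matched no label and were not used.

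Symbols came from a name table (88.1% and 87.3% of identifiers matched). Values were transformed to log2(CPM + 1) and fitted with limma 3.58.1 (R 4.3.3, trended empirical Bayes), with p values adjusted by Benjamini and Hochberg over all features of a table and calls at an adjusted p under 0.05. OE was fitted against EV, KD (6 libraries) against shScr, and KD4, KD6 and shScr as 3 groups. Usage was tested with diffSplice and Simes' method. The tests were checked on simulated data. Members and lists were chosen with earlier results of these data known. Named were members called in any gene comparison, the 10 with the highest mean CPM, the 5 with the smallest p per comparison, called transcripts and usage genes, and up to 4 called genes per list by p; Lgals3, Krt19 and Pdgfra were named after their values were seen. Alternatives were a pseudocount of 0.1, quantile and median-of-ratios scaling, a minimum mean of 5 CPM, a replicate block, other thresholds and leaving out each library. Promoters came from RefSeq and transcript lengths from GENCODE vM1.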

Additional observations from a re-analysis of the deposited data

Results flagged for a closer look

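The hairpin lines differed from each other in 5 members by the test of the difference itself. KD6 against KD4, the log2 change was 0.99 for Mgat4a, 1.19 for Galnt3, -0.996 for B4galt4, 0.35 for Galnt7 and 0.45 for Mgat5. Smarcd1 also differed between the lines (log2 change 0.60, adjusted p = 0.00292). Whether the 5 differences follow the level of Smarcd1, the hairpin or the transduced line cannot be told apart in this design.

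Of 47 members tested over the 6 hairpin libraries, 2 had a single library far from the others, where chance alone marks about 1 in 20 groups. Mgat3, which adds the bisecting GlcNAc of N-glycans, was at 13.2 CPM in KD4 replicate 2, the highest of the 6. Man1a2 was at 129 CPM in KD4 replicate 1, the lowest of the 6. Neither gene was called in any comparison.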

How the results depend on the processing

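Of 390 values of named genes under an alternative, 335 kept their direction and side of the threshold, 53 no longer passed, 2 newly passed and 0 turned round. At an unadjusted p under 0.05 the members called were 7 in OE, 7 in KD, 14 in KD4, 8 in KD6 and 11 in KD6 against KD4, compared with 0, 2, 9, 4 and 5 at an adjusted p under 0.05. Taking KD as the mean of both lines in a fit of 3 groups called 5 members. Leaving out 1 library at a time gave 1 to 2 members in KD, 5 to 9 in KD4, 1 to 4 in KD6 and 4 to 5 in KD6 against KD4, and 2 to 4 transcripts in KD4, 0 to 2 transcripts in KD6 and 0 to 1 usage gene in OE. With a minimum mean of 5 CPM the usage calls went to 0 in OE, KD4 and KD6. That minimum removes the low St3gal3 and Mgat1 transcripts behind these calls, so this setting could not test them. The usage calls went to 0 in OE and KD4 with the ratio test and to 2 in KD6 with a pseudocount of 0.1. Replicate numbers did not pair the samples: deviations of libraries with the same number correlated from -0.33 to 0.26. With the replicate block the counts were 1 member in KD, 1 member in KD6, 0 transcripts in KD4, 0 transcripts in KD6 and 0 usage genes in OE. The block ended the calls of St3gal5 in KD, KD4 and KD6 (adjusted p = 0.108, 0.107 and 0.118), of B3galt2 in KD4 (0.0977) and of St6galnac3 and St6galnac4 in KD6 (0.111 and 0.120). The cause of these changes was not tested. Depth is unknown, so the counting error of low members such as Galnt12 and B4galt4 could not be given.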
